A study of Homo sapiens with 4 samples.

Results

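The actin and myosin cytoskeleton genes were the protein-coding genes of the deposited expression table whose symbols belong to the actins, actin-binding proteins, tropomyosins, myosins and their adhesion and membrane anchors. The symbol rule found 45 genes among the 2897 of the table, and all 45 reached the mean of 1 FPKM (fragments scaled to gene length and library size) that 2883 genes reached. The rule used names and no expression value, but the members were chosen with earlier results of these data known. The study exposed 2 human gastric cancer cell lines, AGS-1 (given as AGS in the cell line label, a gastric adenocarcinoma line) and HGC-27 (a gastric carcinoma line), to the plant flavonol isorhamnetin (ISO) and sequenced their mRNA. The control library of each line came from untreated wild-type cells, and the ISO library from wild-type cells given 50 μM ISO for 24 h according to the labels, while the study's text states a lower dose for these libraries. Each condition of each line had 1 library in the table, so a difference between ISO and control within a line has no replicate check and was given no p-value. The study's text mentions duplicate samples, and whether a column of the table stands for 1 library or for several merged ones is not given in the sources used here.

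Actin monomers assemble into filaments that give a cell its shape and its grip on the substrate. Profilins and thymosins handle the monomers, the Arp2/3 complex branches the filaments, filamins and actinins crosslink them, and tropomyosins and myosin II turn bundles of them into contractile stress fibres that end at focal adhesions. Many of these genes are targets of serum response factor (SRF), whose coactivators MRTF-A and MRTF-B are held in the cytoplasm by free actin monomers.

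The 4 libraries held between 15235004 and 20199425 fragments, and the actin and myosin genes took 3.38% of the fragments of AGS-1 control cells (95% Wilson interval 3.37 to 3.38), 1.79% of AGS-1 ISO cells, 1.42% of HGC-27 control cells and 1.22% of HGC-27 ISO cells. Intervals of this kind cover counting error only. The share was therefore 1.89 times as high in the control as in the ISO library of AGS-1 and 1.17 times as high in HGC-27. Among the fragments of listed genes alone the shares were 4.30%, 2.78%, 2.33% and 2.04% in the same order. Fragments of the mitochondrial genome made up 9.43% of AGS-1 control and 14.3% of AGS-1 ISO fragments, and 9.75% and 12.4% in HGC-27. Without them the share of the actin and myosin genes was 1.79 times as high in the AGS-1 control library and 1.13 times in that of HGC-27. The summed level of 7 epithelial markers of 9 looked for was 2197 and 1416 FPKM in the AGS-1 control and ISO libraries but 5.86 and 4.54 FPKM in those of HGC-27, where the keratin KRT19 was listed at 0. In the opposite way, 3 mesenchymal markers of 6 summed to 0.712 and 0.860 FPKM in AGS-1 and to 734 and 483 FPKM in HGC-27, with vimentin (VIM) at 306 and 249 FPKM. Of the fibroblast markers, 2 of 6 (COL1A1 and COL3A1) summed to 9.75 and 6.83 FPKM in AGS-1 and 776 and 602 FPKM in HGC-27. None of 7 smooth muscle markers was in the table, 1 of 7 striated muscle markers was (TNNT1, 20.7 to 61.5 FPKM) and 1 of 6 immune cell markers was (lysozyme, LYZ, at 594 and 314 FPKM in AGS-1 cells and 0 in HGC-27 cells).

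Under ISO treatment, levels of most actin and myosin genes were lower, with the larger differences in AGS-1 cells. The log2 ratio of ISO over control, computed on FPKM plus a pseudocount of 1, was below 0 for 42 of 45 genes in AGS-1 cells and for 39 of 45 in HGC-27 cells, and 37 were below 0 in both. Of the 2883 genes compared, 78.8% were below 0 in AGS-1, 64.2% in HGC-27 and 1619 in both. The median ratio was −0.67 in AGS-1 cells and −0.26 in HGC-27 cells. All genes of the table also leaned down, with medians of −0.29 and −0.11, and relative to these the medians of the actin and myosin genes were −0.38 and −0.15. All genes here means the listed genes, 98.1% of which averaged 10 FPKM or more, and not the whole transcriptome. In bulk RNA a lower level in every cell and fewer cells expressing a gene cannot be told apart. Of the 45 genes, 39 in AGS-1 cells and 30 in HGC-27 cells were below the median of all genes. In AGS-1, 10 of the 45 were at least 2-fold lower under ISO, compared with 6.66% of all genes, and none was at least 2-fold higher, compared with 0.832%. In HGC-27 none was at least 2-fold lower (0.937% of all genes) or 2-fold higher (0.555% of all genes). Among the 10 genes were ACTB, ACTG1, EZR, FHL3, MYL9, PDLIM1, SYNPO, VASP and VCL, and for each of the 10 the ratio was also below 0 in HGC-27. With the libraries scaled by median of ratios 6 genes were past 2-fold, with upper-quartile scaling 5, and with all 4 scalings the ratios of these 10 genes stayed below 0 in both lines. The direction changed with the scaling for 8 other genes in AGS-1 (ACTR1B, ARPC3, CAPZA1, CFL1, FLNA, MYL12A, MYL6 and TLN1) and for 10 in HGC-27 (CAPZA1, CFL1, FLNA, MYH14, MYH9, MYL12A, MYL6, MYO1E, PDLIM7 and TPM2), all with small ratios.

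**Figure D1:**
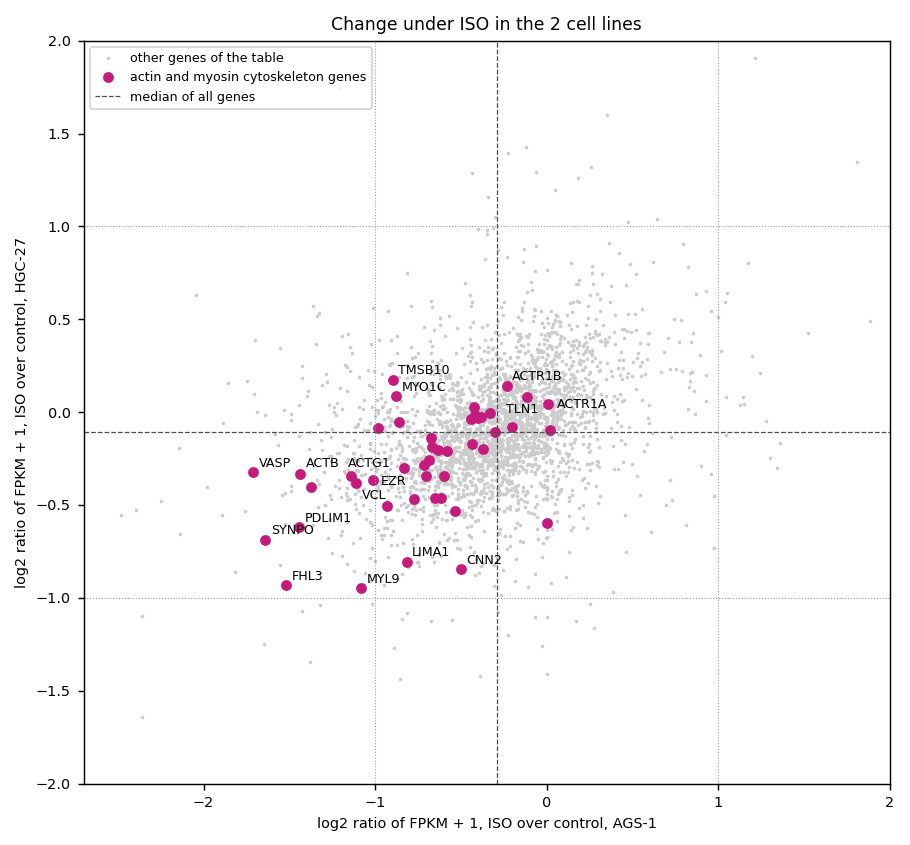
Each point is a gene, with its log2 ratio of FPKM plus 1 (ISO over control) in AGS-1 on the horizontal axis and in HGC-27 on the vertical axis; the 45 actin and myosin cytoskeleton genes are large and coloured, the other genes of the table are grey, dashed lines mark the medians of all genes (−0.29 and −0.11), dotted lines mark 2-fold, and 8 genes lie beyond the axes. Most coloured points sit in the lower left, with VASP, SYNPO and FHL3 farthest left and MYL9 and FHL3 lowest.

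The actins themselves were among the genes with the larger differences in AGS-1. ACTB encodes beta-actin and ACTG1 gamma-actin, the cytoplasmic actins of nonmuscle cells. ACTB (chromosome 7, 5526409 to 5563902, minus strand, GRCh38) stood at 1390 FPKM in AGS-1 control, 513 in AGS-1 ISO, 539 in HGC-27 control and 427 in HGC-27 ISO cells. ACTG1 stood at 644, 292, 144 and 113 FPKM in the same order. The log2 ratios were −1.44 in AGS-1 cells and −0.33 in HGC-27 cells for ACTB, and −1.14 and −0.35 for ACTG1, and the AGS-1 ISO level of ACTB was close to that of untreated HGC-27. ACTB had the 42nd lowest ratio of the 2883 genes in AGS-1 and the 580th lowest in HGC-27. The coding sequences of the pair are 91.3% identical over 1125 bases, so the split of fragments between them depends on how the authors' counting treated reads that match both. The first 90 coding bases are shown because they hold the codons in which the proteins' amino termini differ, with the 17 differing bases in capitals (GENCODE 29 transcripts).
ACTB: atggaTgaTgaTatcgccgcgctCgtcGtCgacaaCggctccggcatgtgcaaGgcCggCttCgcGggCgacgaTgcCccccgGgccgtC
ACTG1: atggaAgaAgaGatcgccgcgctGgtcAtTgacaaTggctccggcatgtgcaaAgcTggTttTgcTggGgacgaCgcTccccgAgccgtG

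The monomer-binding proteins moved less uniformly. Of the 5 genes in the table none was past 2-fold in either line, and the median log2 ratio was −0.53 in AGS-1 cells and −0.47 in HGC-27 cells. TMSB10, a beta-thymosin that sequesters actin monomers, was the most abundant of all 45 genes per length, at 2427 FPKM in AGS-1 control, 1303 in AGS-1 ISO, 910 in HGC-27 control and 1027 in HGC-27 ISO cells. It was thus lower under ISO in AGS-1 (log2 ratio −0.90) and slightly higher in HGC-27 (0.18), the highest ratio of the 45 genes in that line. Its relative TMSB4X had 290, 200, 43.7 and 30.0 FPKM, and its ratio was −0.53 in both lines. Profilin 1 (PFN1), which charges monomers with ATP and feeds them to growing ends, had 366, 213, 198 and 143 FPKM, giving ratios of −0.77 and −0.47. PFN2, the profilin best known from neurons, had no fragment in either AGS-1 library and 39.5 and 25.7 FPKM in the control and ISO libraries of HGC-27, a ratio of −0.60 there. Its AGS-1 ratio of 0 comes from the pseudocount alone and enters the AGS-1 median of the 5 genes. A processed pseudogene of TMSB4X, TMSB4XP8, is 97.0% identical to the TMSB4X coding sequence over its 135 bases and was not counted among the 45 genes. Its row held 164, 90.1, 45.1 and 16.1 FPKM, so the values of TMSB4X are uncertain to the extent that the counting divided fragments between gene and pseudogene.

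None of the genes of the branching machinery passed 2-fold. All 7 genes of the Arp2/3 complex and the coronins, which remove its branches, were below 0 in AGS-1 (median log2 ratio −0.60) and 6 of 7 in HGC-27 (median −0.20), where 78.8% and 64.2% of all genes were. Relative to the medians of all genes, those of the 7 were −0.31 and −0.09. ACTR2, the Arp2 subunit, had 103 FPKM in AGS-1 control, 62.4 in AGS-1 ISO, 81.9 in HGC-27 control and 67.0 in HGC-27 ISO cells, giving ratios of −0.72 and −0.28. ARPC2, a structural subunit of the same complex, had 51.2, 33.4, 28.1 and 22.0 FPKM and ratios of −0.60 and −0.34. CAPZA1, a subunit of the protein that caps the growing ends of filaments, lay at the median of all genes in both lines, with 59.4, 47.9, 32.4 and 30.0 FPKM and ratios of −0.30 and −0.11, which became 0.10 and 0.03 with upper-quartile scaling.

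The ratios of genes for crosslinking proteins varied widely, with all 5 below the median of all genes in AGS-1 and 4 of 5 in HGC-27. The 5 genes had medians of −0.82 in AGS-1 cells and −0.40 in HGC-27 cells. Filamin A (FLNA), a large flexible crosslinker that also binds integrins, had 263 FPKM in AGS-1 control, 201 in AGS-1 ISO, 196 in HGC-27 control and 193 in HGC-27 ISO cells. Its log2 ratios were −0.38 and −0.02, both of which turned above 0 with upper-quartile scaling (0.03 and 0.11). Synaptopodin (SYNPO), an actin-bundling protein that binds alpha-actinin and is best known from kidney podocytes, had 33.4, 10.0, 11.4 and 6.68 FPKM. Its ratios of −1.64 and −0.69 were the 25th and 96th lowest of all genes in AGS-1 and HGC-27.

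The genes for proteins that coat filaments, the transgelins, calponins and tropomyosins, held no 2-fold difference. The 3 transgelin and calponin genes had medians of −0.65 in AGS-1 cells and −0.46 in HGC-27 cells. TAGLN2, transgelin 2, had 495 FPKM in AGS-1 control, 303 in AGS-1 ISO, 152 in HGC-27 control and 120 in HGC-27 ISO cells, with ratios of −0.71 and −0.34. CNN2, calponin 2, was one of few genes with the larger difference in HGC-27, at 73.4, 51.6, 76.2 and 42.0 FPKM and ratios of −0.50 in AGS-1 cells and −0.85 in HGC-27 cells. In HGC-27 this was the 48th lowest ratio of all genes, against 875th in AGS-1. Among the tropomyosins, which decide which myosins and severing proteins reach a filament, TPM4 had 62.1, 40.2, 61.4 and 44.3 FPKM (ratios −0.62 and −0.46) and TPM3 had 50.4, 31.3, 26.7 and 23.3 FPKM (ratios −0.67 and −0.19). TPM2 was nearly silent in AGS-1, with 6 and 7 fragments (0.12 and 0.14 FPKM), and had 19.7 and 18.4 FPKM in HGC-27, a ratio of −0.10 that became 0.03 with upper-quartile scaling.

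**Figure D2:**
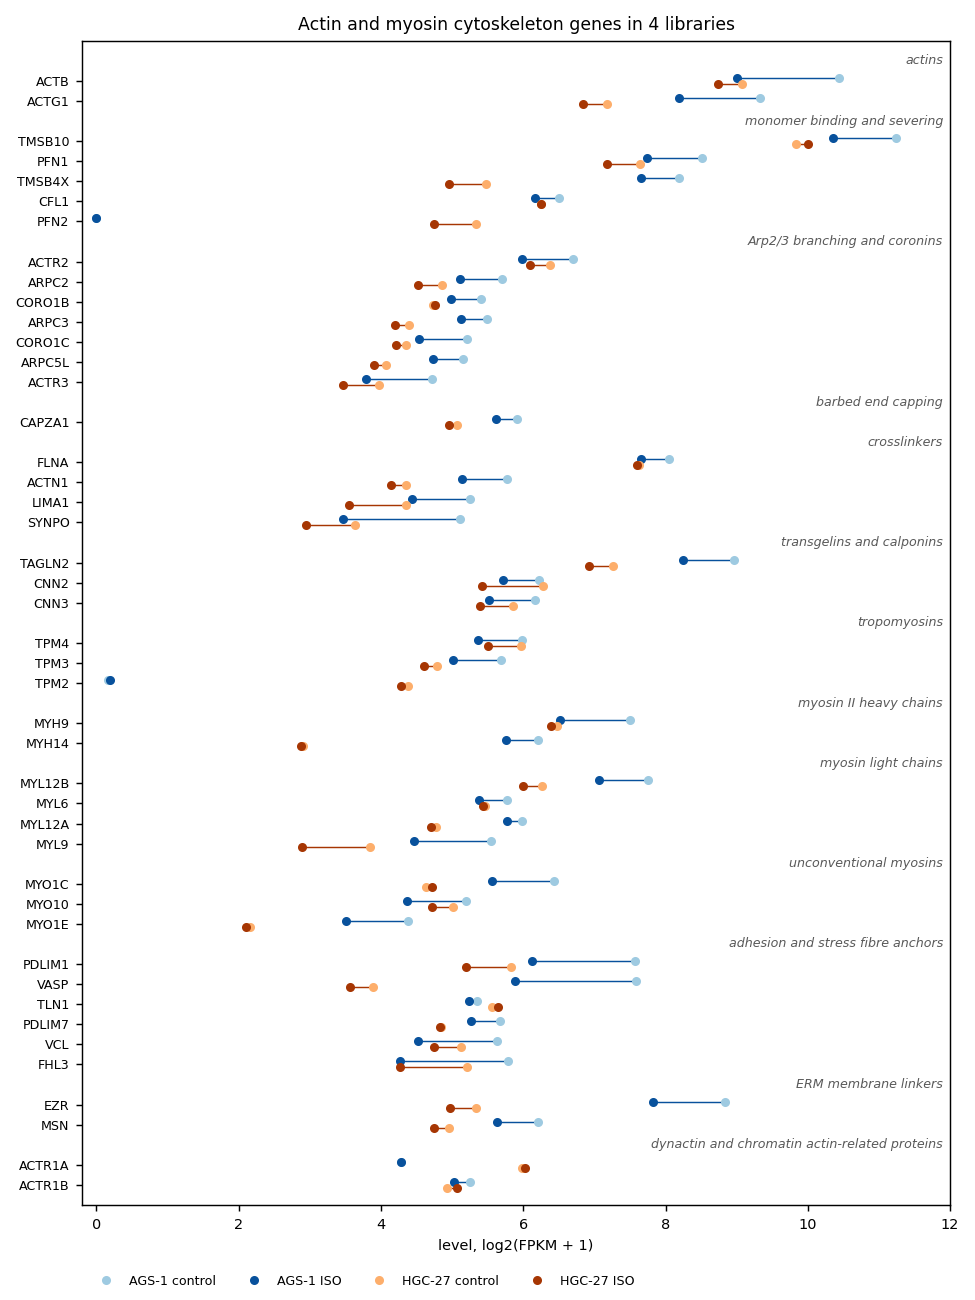
Levels of 44 of the genes as log2(FPKM + 1) on the horizontal axis, in rows grouped by role, with 1 point per library (light blue AGS-1 control, dark blue AGS-1 ISO, light orange HGC-27 control, dark orange HGC-27 ISO) and a line joining the libraries of each cell line. The dark blue points lie left of the light blue ones for 41 genes, the orange pairs are shorter for most genes, and PFN2 and TPM2 sit at or near 0 in AGS-1 only.

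Myosin genes differed by chain. The motor chains of nonmuscle myosin II had ratios of −0.98 and −0.09 for MYH9 and −0.44 and −0.04 for MYH14. MYH9 stood at 180 FPKM in AGS-1 control, 90.7 in AGS-1 ISO, 88.0 in HGC-27 control and 82.7 in HGC-27 ISO cells, and MYH14 at 72.9, 53.3, 6.49 and 6.31 FPKM. The small HGC-27 ratios of both turned above 0 with upper-quartile scaling (0.05 and 0.09). The light chains had medians of −0.55 in AGS-1 cells and −0.17 in HGC-27 cells over 4 genes, and MYL9 stood apart from the others. MYL9, the regulatory light chain of smooth muscle and nonmuscle myosin II, had 45.7, 21.0, 13.3 and 6.42 FPKM. Its ratios were −1.08 in AGS-1 cells and −0.95 in HGC-27 cells, where it was the lowest of the 45 genes and the 30th lowest of all genes. MYL12B, a regulatory light chain of nonmuscle myosin II, had 215, 133, 75.5 and 62.9 FPKM and ratios of −0.69 and −0.26. MYL6, the essential light chain that stiffens the lever arm, had 53.8, 40.4, 43.2 and 42.3 FPKM and ratios of −0.40 and −0.03, which became 0.0016 and 0.11 with upper-quartile scaling. The coding sequences of MYL9 and MYL12B are 80.8% identical, and those of MYL12A and MYL12B 95.2% identical, so the division between the latter pair is the less certain. The first 90 coding bases of MYL9 and MYL12B are shown because these chains had different ratios in HGC-27 and the sequences show where reads can tell them apart, with the 15 differing bases in capitals (GENCODE 29 transcripts).
MYL9: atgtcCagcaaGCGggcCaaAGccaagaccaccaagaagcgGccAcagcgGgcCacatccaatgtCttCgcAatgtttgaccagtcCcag
MYL12B: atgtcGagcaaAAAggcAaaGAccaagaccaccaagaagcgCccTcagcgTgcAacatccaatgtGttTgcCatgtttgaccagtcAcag

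The 3 unconventional myosins had similar ratios in AGS-1, from −0.88 to −0.83, and ratios from −0.30 to 0.09 in HGC-27. MYO1C, a single-headed motor that links filaments to membranes, had 85.3 FPKM in AGS-1 control, 46.0 in AGS-1 ISO, 23.8 in HGC-27 control and 25.3 in HGC-27 ISO cells, so its ratio was −0.88 in AGS-1 cells and 0.09 in HGC-27 cells. MYO10, the motor of filopodial tips, had 35.6, 19.6, 31.3 and 25.2 FPKM and ratios of −0.83 and −0.30.

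The adhesion and stress fibre anchors held both the lowest ratio in AGS-1 and one of the smaller differences there. The 6 genes had a median of −1.28 in AGS-1 cells and −0.35 in HGC-27 cells. At least 2-fold lower were 4 of the 6 in AGS-1 (6.66% of all genes) and none in HGC-27 (0.937% of all genes). VASP (chromosome 19, 45506579 to 45526983, plus strand), which elongates filaments at focal adhesions and leading edges, had 192 FPKM in AGS-1 control, 57.9 in AGS-1 ISO, 13.8 in HGC-27 control and 10.8 in HGC-27 ISO cells. Its ratio of −1.71 was the lowest of the 45 genes in AGS-1 and the 19th lowest of all genes, while the HGC-27 ratio was −0.32. FHL3 (chromosome 1, 37996770 to 38005606, minus strand), a protein of LIM domains found at focal adhesions and stress fibres, had 54.1, 18.2, 35.9 and 18.3 FPKM. Its ratios of −1.52 and −0.93 ranked 34th lowest in AGS-1 and 33rd lowest in HGC-27, and both lines had nearly the same level under ISO. PDLIM1, an adaptor that ties alpha-actinin to kinases, had 189, 68.7, 55.6 and 35.8 FPKM and ratios of −1.44 and −0.62. Vinculin (VCL), which couples talin to actin under tension, had 48.6, 22.0, 34.0 and 25.9 FPKM and ratios of −1.11 and −0.38. Talin 1 (TLN1), the integrin activator that vinculin binds, did not share this difference, with 39.9, 36.8, 46.1 and 48.9 FPKM and ratios of −0.11 and 0.08. The AGS-1 ratio of TLN1 became 0.16 with median-of-ratios and 0.29 with upper-quartile scaling. Counting errors of the log2 ratios of the 10 genes past 2-fold ran from 0.0089 (ACTB) to 0.0695 (FHL3) in AGS-1, and they leave out variation between cultures.

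The linkers between filaments and the plasma membrane also had their larger differences in AGS-1. Ezrin (EZR), the linker of epithelial microvilli, had 456 FPKM in AGS-1 control, 225 in AGS-1 ISO, 39.5 in HGC-27 control and 30.4 in HGC-27 ISO cells, with ratios of −1.01 and −0.37. Moesin (MSN) had 73.0, 48.5, 29.9 and 25.8 FPKM, with ratios of −0.58 and −0.21. ACTR1A and ACTR1B carry actin-related names but form the short filament of dynactin, the adaptor of the microtubule motor dynein. ACTR1A had 18.4, 18.5, 62.3 and 64.1 FPKM and ratios of 0.01 and 0.04. ACTR1B had 37.2, 31.5, 29.5 and 32.6 FPKM and ratios of −0.23 and 0.14, the former turning to 0.04 and 0.17 with the 2 scalings by median of ratios and upper quartile. Leaving this pair out changed neither count of 2-fold differences (10 and 0), and the medians of the other 43 genes were −0.67 and −0.28. A further 12 actin and myosin genes had ratios from −0.93 (ACTR3) to −0.20 (MYL12A) in AGS-1 and from −0.80 (LIMA1) to 0.03 (CORO1B) in HGC-27, and none of the 12 passed 2-fold.

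The change shared by both lines was tested with limma across all 2883 genes, in a model of treatment plus cell line, where the lines are the only replication of ISO. FHL3, MYL9 and SYNPO fell, 3 of 45 genes compared with 0.832% of all genes, and none rose, compared with 0.104%. The shared log2 change was −1.23 for FHL3 (standard error 0.206, Benjamini-Hochberg adjusted p = 0.0167), −1.02 for MYL9 (standard error 0.190, adjusted p = 0.0325) and −1.16 for SYNPO (standard error 0.247, adjusted p = 0.0491). Each of these genes was lower under ISO in 2 of 2 lines. At an unadjusted p under 0.05, 20 of the 45 genes were lower (44.4%, beside 17.8% of all genes) and none was higher (2.22% of all genes). ACTB did not pass, with a shared log2 change of −0.88 and an adjusted p of 0.185. The model left 1 residual degree of freedom, so its error rests on the spread limma borrows across genes. An exact permutation test of 2 against 2 libraries that ignores the pairing within lines cannot go below p = 0.333. A test that keeps the pairing has fewer arrangements still. The 3 calls were lost with median-of-ratios scaling (smallest adjusted p among the 45 genes 0.112), with upper-quartile scaling (0.197), with mitochondrial fragments taken out of the totals (0.322), without the filter on low values (0.0876), without the trend of variance on level (0.106) and without the cell line term (1.00). No gene of the whole table passed under the first 3 of these settings. Whether the lines differ in their response to ISO could not be tested, since the model with that term has no residual degree of freedom.

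Apart from ISO, the cell lines differed in their actin and myosin genes. In the same limma model 26 of the 45 genes were higher in AGS-1, compared with 32.2% of all genes, and 3 were higher in HGC-27, compared with 24.7%. The median difference, AGS-1 minus HGC-27, was 0.73 on the log2 scale for the 45 genes and 0.05 for all genes. Each line was represented by its control and its ISO library, which are not replicate cultures, and this comparison rests on the same 4 libraries as the shared change. Among the largest differences were those of EZR (log2 difference 3.17, standard error 0.249, adjusted p = 1.75e-07) and MYH14 (3.10, standard error 0.194, adjusted p = 1.72e-08). VASP (3.01) and TMSB4X (2.70) came next, and for each of these 4 genes both AGS-1 libraries lay above both HGC-27 libraries. Epithelial marker levels differed between the lines in the same direction, as given above, and their part in these differences was not tested.

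PFN2, TPM2 and ACTR1A were the genes higher in HGC-27. With a floor of 3 fragments in each AGS-1 library, PFN2 was at least 743-fold higher in the HGC-27 control than in the AGS-1 control library, and at least 508-fold higher between the ISO libraries. On the log2 scale TPM2 differed by −4.15 and ACTR1A by −1.73 (standard error 0.193, adjusted p = 6.71e-06). PFN2 and TPM2, with at most 7 fragments in an AGS-1 library, reached the mean of 1 FPKM only through HGC-27. They could therefore be called in this direction only, and their AGS-1 side is the pseudocount or a value near the floor. TLN1 (−0.30, adjusted p = 0.224) and MYO10 (−0.08, adjusted p = 0.746) were next in order and did not pass, and 16 genes in all did not pass. TLN1 passed with median-of-ratios scaling (−0.39) and with upper-quartile scaling (−0.53), which made 4 genes higher in HGC-27. By role, 4 of 5 crosslinkers, 5 of 7 Arp2/3 and coronin genes, 3 of 4 light chains, 3 of 6 anchors, 2 of 3 unconventional myosins, 1 of 2 myosin II heavy chains and both membrane linkers were higher in AGS-1. So were CAPZA1, 1 of 2 actins, 1 of 3 transgelins and calponins, 2 of 5 monomer-binding genes (with 1 higher in HGC-27) and 1 of 3 tropomyosins (with 1 higher in HGC-27). For comparison, 32.2% of all genes passed with the higher level in AGS-1, while 24.7% passed in the opposite direction. The roles hold few genes each, and no role was tested against these shares. ACTB (log2 difference 0.81, adjusted p = 0.0566), TMSB10 (0.88, adjusted p = 0.0559) and MYH9 (0.58, adjusted p = 0.0791) were not called, but the first pair passed with a pseudocount of 0.1 FPKM, with median-of-ratios scaling, among genes averaging 10 FPKM or more, with protein-coding rows only and without the variance trend, and MYH9 with protein-coding rows only. Their AGS-1 ISO levels lay nearer to HGC-27 than their AGS-1 control levels did.

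**Figure D3:**
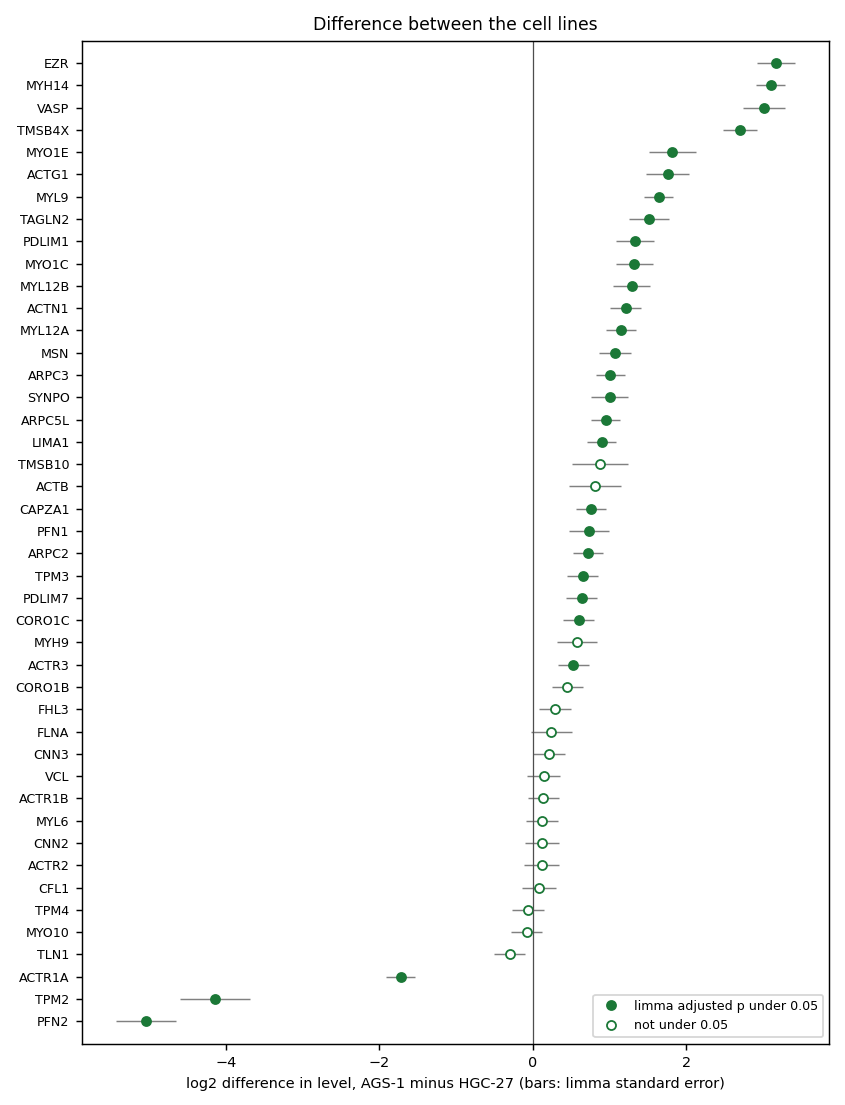
Log2 difference in level between the cell lines (AGS-1 minus HGC-27, limma on log2(FPKM + 1) over 4 libraries) for 44 of the genes, with bars of 1 standard error; filled points have an adjusted p under 0.05. EZR, MYH14, VASP and TMSB4X lie between 2.70 and 3.17, and PFN2, TPM2 and ACTR1A lie farthest below 0.

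Within families the lines used their paralogs in different proportions, given here as shares of the family's summed FPKM. The gene length in the table includes long untranslated and alternative exons, so a share between genes also depends on how well that length matches the transcripts made. ACTB held 68.3% of the actin level in AGS-1 control, 63.7% in AGS-1 ISO, 78.9% in HGC-27 control and 79.1% in HGC-27 ISO cells. MYH14 held 28.8% and 37.0% of the myosin II heavy chain level in AGS-1 control and ISO cells, and 6.87% and 7.09% in HGC-27. The between-line gaps in these families were wider than the gaps between control and ISO. TPM2 held 0.110% and 0.192% of the tropomyosin level in AGS-1 and 18.3% and 21.3% in HGC-27, with TPM4 the leading tropomyosin everywhere (51.5% to 56.9%). EZR held 86.2% and 82.3% of the level of the ezrin and moesin pair in AGS-1 and 56.9% and 54.1% in HGC-27. The share of MYL9 among the regulatory light chains was lower in the ISO library of both lines, at 14.1% and 10.1% in AGS-1 control and ISO cells and 11.6% and 6.82% in HGC-27, while MYL12B held between 64.0% and 66.7% in every library. ACTR1A held 33.1% and 36.9% of the dynactin pair's level in AGS-1 and 67.9% and 66.3% in HGC-27.

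**Figure D4:**
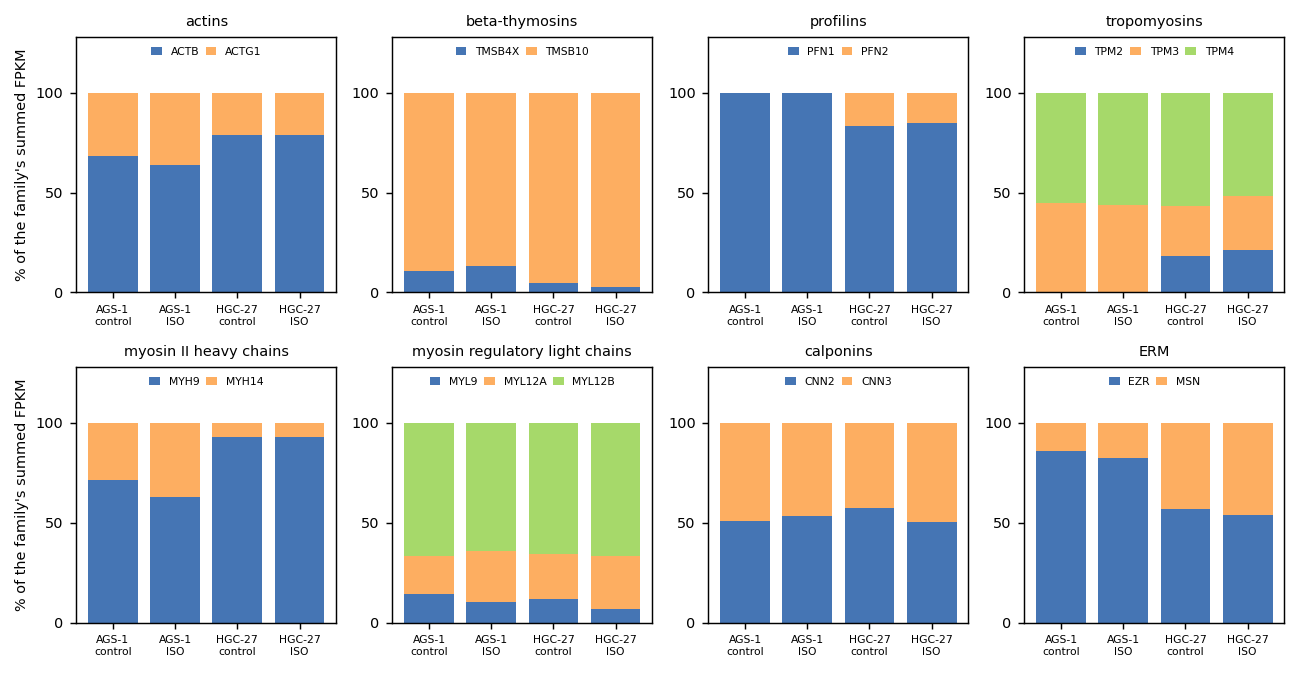
Stacked bars of the share of each family's summed FPKM (vertical axis, percent) held by each paralog, with 4 bars per panel for AGS-1 control, AGS-1 ISO, HGC-27 control and HGC-27 ISO. PFN2 and TPM2 appear in the HGC-27 bars and MYH14 takes more of the AGS-1 bars (28.8% in control cells) than of the HGC-27 bars (6.87%).

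Known or presumed MRTF-SRF targets among the 45 genes had medians close to those of the other members. Of 22 listed targets 15 were in the table, with median log2 ratios of −0.63 in AGS-1 cells and −0.32 in HGC-27 cells, and the other 30 genes had medians of −0.67 and −0.23. At least 2-fold lower in AGS-1 were 5 of the 15 targets and 5 of the other 30 genes, compared with 6.66% of all genes. SRF itself, named here after its values were seen, had 26.2 FPKM in AGS-1 control, 16.0 in AGS-1 ISO and 18.1 in both HGC-27 libraries. SRF binds the CArG box, 10 bases that begin with CC, end with GG and hold A or T between. Both strands of the 250 bases before each RefSeq transcript start (GRCh38.p14) were searched, and 41 of the 45 genes had such a window, with 66 windows in all. A CArG box was found in 6 of the 66 windows (9.09%), beside 1.16% of 35116 windows of all genes, and belonged to ACTG1, ACTN1, CNN2, FLNA, MYO1E and TPM4. Other motifs were GGGCGG (77.3% of the 66 windows, 42.6% of all), GGAATG (9.09% and 11.9%) and TATAAA (1.52% and 10.7%), and no CArG box overlapped a match to these. A match is a description of letters and not of binding. The ratios in AGS-1 of the 4 of these genes given by value above ran from −1.14 for ACTG1 to −0.38 for FLNA. Their windows are shown to place the box, in capitals, relative to the start of transcription, which follows the last base.
ACTG1, chr17:81512800-81513049, minus strand, box 94 to 85 bases before the start: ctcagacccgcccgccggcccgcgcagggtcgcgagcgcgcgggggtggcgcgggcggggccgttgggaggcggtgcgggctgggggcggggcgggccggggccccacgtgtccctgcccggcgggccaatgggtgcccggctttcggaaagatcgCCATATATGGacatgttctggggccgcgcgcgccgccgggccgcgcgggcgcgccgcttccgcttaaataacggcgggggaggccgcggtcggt
CNN2, chr19:1026358-1026607, plus strand, box 89 to 80 bases before the start: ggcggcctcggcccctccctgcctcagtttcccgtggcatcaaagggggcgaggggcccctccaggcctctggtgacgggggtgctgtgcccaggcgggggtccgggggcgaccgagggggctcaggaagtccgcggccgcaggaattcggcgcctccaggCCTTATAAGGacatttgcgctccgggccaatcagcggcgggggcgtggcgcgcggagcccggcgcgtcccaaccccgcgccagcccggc
FLNA, chrX:154374635-154374884, minus strand, box 94 to 85 bases before the start: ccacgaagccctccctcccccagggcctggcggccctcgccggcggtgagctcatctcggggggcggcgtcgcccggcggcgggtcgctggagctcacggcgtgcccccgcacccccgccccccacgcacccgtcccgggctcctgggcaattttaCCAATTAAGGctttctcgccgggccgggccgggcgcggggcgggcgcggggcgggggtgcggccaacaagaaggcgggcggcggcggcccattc
TPM4, chr19:16067288-16067537, plus strand, box 173 to 164 bases before the start: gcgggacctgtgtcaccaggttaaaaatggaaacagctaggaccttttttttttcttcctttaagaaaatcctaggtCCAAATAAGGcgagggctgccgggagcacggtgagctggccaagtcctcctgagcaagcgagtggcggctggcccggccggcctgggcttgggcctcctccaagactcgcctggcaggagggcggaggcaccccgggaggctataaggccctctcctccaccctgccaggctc

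Regulators of actin outside the symbol rule, such as signalling, scaffold and bundling proteins, had medians near those of the 45 genes. Of 92 listed genes 36 were in the table, with median log2 ratios of −0.71 in AGS-1 cells and −0.21 in HGC-27 cells. In AGS-1, 4 of the 36 were at least 2-fold lower under ISO (AJUBA, FSCN1, CDC42EP1 and ARHGEF2), in HGC-27 1 was (AJUBA), and none was 2-fold higher. The shares of all genes at least 2-fold lower were 6.66% and 0.937%. AJUBA, a LIM protein of junctions and of Hippo signalling, had 100 FPKM in AGS-1 control, 37.8 in AGS-1 ISO, 25.1 in HGC-27 control and 9.26 in HGC-27 ISO cells, and was the 1 gene of the 36 that passed the shared limma test (log2 change −1.36, adjusted p = 0.00633). ARHGEF2, a guanine nucleotide exchange factor that binds microtubules, had 49.6, 22.1, 66.8 and 40.7 FPKM. FSCN1, which bundles filopodial actin, had 7.95 and 2.71 FPKM in the AGS-1 control and ISO libraries but 190 and 195 FPKM in those of HGC-27, while CDC42EP1, an effector of CDC42, had 165 and 68.5 FPKM in AGS-1 and 0.370 and 0.161 in HGC-27. Between the lines 19 of the 36 were higher in AGS-1 (32.2% of all genes), 3 were higher in HGC-27 (24.7%) and 14 did not pass. The tubulins, another cytoskeletal family, had medians of −0.06 in AGS-1 cells and 0.22 in HGC-27 cells over 5 genes, with none past 2-fold. Their AGS-1 median turned to 0.14 and 0.24 with the scalings by median of ratios and upper quartile. The keratins among the epithelial markers were lower under ISO in AGS-1, with log2 ratios of −0.57 for KRT8, −0.91 for KRT18 and −0.85 for KRT19. KRT7, at only 4.02 FPKM in AGS-1 control cells, had −1.71.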

How the data were processed

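mRNA of 4 libraries (AGS-1 and HGC-27, control and ISO) was analysed. The authors deposited 1 table of FPKM values for 2897 genes, with gene lengths and coordinates, and why these genes were kept is not given in the sources used here. The submitters' processing notes name CASAVA 1.8, HISAT2 and GRCh38 (hg38), and the counting tool and annotation are not given in the sources used here. Each FPKM value times its gene length came to whole steps of its column (100% of values within 0.1 fragment), which gave the fragments and library totals used for depth and counting errors only.

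Ratios were log2((ISO + 1)/(control + 1)), called at 2-fold, over the 2883 genes averaging 1 FPKM or more. A fold on this scale understates the change of genes near 0. limma 3.58.1 in R 4.3.3 (lmFit, eBayes with trend) was fitted to log2(FPKM + 1) with cell line and treatment, Benjamini-Hochberg adjusted over all 2883 genes, and compared with 0.05. The study's text speaks of duplicates, but each condition and line has 1 column, treated here as 1 library, and whether columns merge libraries or come from separate cultures is not given in the sources used here. The p-values measure only the spread between these columns, and counting errors take each as 1 library. Count tests were not used on FPKM.

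The 45 members and all lists were chosen with earlier results of these data known. Genes named by value were both actins, the 2 most abundant of each of 13 roles, those past 2-fold in either line, the 3 largest rises per line, those passing the shared test, the 5 largest line differences each way, and those with opposite ratios of at least 0.2 in size. Regulators outside the rule were named past 2-fold. One gene's values are not reported here. Python 3.11.15 with pandas 2.3.3, numpy 2.4.6 and scipy 1.17.1 was used. Alternatives were pseudocounts, filters, scalings, protein-coding rows and model terms. Totals without mitochondrial fragments were added after seeing the data.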

Additional observations from a re-analysis of the deposited data

Results flagged for a closer look

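For 4 of the genes named by value, the ISO library lay below the control library in AGS-1 and above it in HGC-27, each by more than the counting error. The difference between the lines (log2 ratio in AGS-1 minus that in HGC-27) was −1.07 for TMSB10, −0.96 for MYO1C, −0.37 for ACTR1B and −0.19 for TLN1. With 1 library per condition the difference between the lines was not tested. The opposite directions of TMSB10 and MYO1C were kept under all 4 scalings, while ACTR1B and TLN1 were above 0 in both lines when scaled by median of ratios or by upper quartile.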

How the results depend on the processing

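The number of actin and myosin genes at least 2-fold lower in AGS-1 (10) was 6 with median-of-ratios and 5 with upper-quartile scaling, and their median there (−0.67) was −0.61 with a pseudocount of 5 FPKM, −0.40 and −0.27 with the 2 scalings, and −0.59 without mitochondrial fragments in the totals. In HGC-27 the count of 0 became 1 with a pseudocount of 0.1 FPKM, and the median (−0.26) became −0.12 with upper-quartile scaling. The scalings moved the median of all genes alike, to −0.03 and 0.09 in AGS-1 and −0.05 and 0.02 in HGC-27. The median relative to all genes stayed between −0.39 and −0.35 in AGS-1 and between −0.18 and −0.14 in HGC-27 under the alternatives run.

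The count of 3 genes that fell in the shared limma test was 7 and 1 with pseudocounts of 0.1 and 5 FPKM, 8 among genes averaging 10 FPKM or more and 9 with protein-coding rows only. The count over all genes moved with it, from 24 to 99, 9, 93 and 121 in the same order. For the actin and myosin genes it was 0 with median-of-ratios scaling, upper-quartile scaling, no filter, totals without mitochondrial fragments, no cell line term and no trend in limma. Over all genes 0, 0, 4, 0, 0 and 4 fell under these settings. The adjusted p over the alternatives ran from 0.0004 to 1.00 for FHL3, from 0.0025 to 1.00 for MYL9 and from 0.0029 to 1.00 for SYNPO. The cause was not tested, apart from the cell line term, without which the difference between the lines counts as error. The 26 genes higher in AGS-1 became 17 without a treatment term and stayed between 24 and 29 otherwise.

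Some differences that were not called changed sign. The shared change became 0.12, 0.22 and 0.0143 for ACTR1B and 0.15, 0.25 and 0.0440 for TLN1 with median-of-ratios scaling, upper-quartile scaling and totals without mitochondrial fragments, and 0.0058 and 0.0472 for TPM2 with the first 2. With upper-quartile scaling it became 0.0643 for CAPZA1, 0.0709 for FLNA, 0.0238 for MYH14 and 0.0534 for MYL6, and the line difference became −0.0855 for ACTR1B, −0.11 for ACTR2, −0.10 for CNN2, −0.10 for MYL6 and −0.0839 for VCL. Depth limits TPM2 and PFN2 in AGS-1, with at most 7 fragments.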
